A study of Mus musculus with 16 samples.

Results

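The miR-106b-25 cluster and miR-20b-5p are 4 microRNAs (miRNAs), short RNAs that guide the repression of messenger RNAs. They belong to 2 of the 3 paralogous clusters of the miR-17 family, mmu-miR-106b-5p, mmu-miR-93-5p and mmu-miR-25-3p to the one hosted by the gene Mcm7 and mmu-miR-20b-5p to the one on the X chromosome. They were taken by name, as the non-control spots whose systematic name on the array is 1 of these 4. All 4 were found among the 1247 mouse miRNAs of the array, and all 4 were among the 231 that entered the tests. The scanner software marked each as detected on 16 of 16 arrays, as read by its probes. Uptake of miR-20a-5p by the probes of miR-20b-5p was not tested.

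Total RNA came from RAW264.7 cells, a murine line that resembles macrophages. In the Th2_IL33 group, cells were grown for 48 h with IL-4 and IL-13 (interleukins of type 2 helper T cells, called Th2 cytokines, at 10 ng per ml) and then given recombinant murine interleukin-33 (IL-33, an alarm cytokine of damaged epithelium, 20 ng per ml) for 4 h. The Th2 group had the Th2 cytokines and no IL-33, the Media_IL33 group was grown in medium alone and given IL-33, and the Media group had neither. Each group holds 4 arrays, 1 from each of 4 independent experiments, and all groups share 1 line of cells, so the spread is between cultures of that line and not between animals. The study asks how macrophages respond to an inflammatory signal after growth in an allergic environment.

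Mcm7 encodes a subunit of the helicase that unwinds DNA for replication, and the 3 hairpins in its intron are made from the same primary transcript, which E2F factors drive in dividing cells. In human cells, miR-106b-5p and miR-93-5p are known to repress the cell cycle inhibitor p21 (CDKN1A), and miR-25-3p to repress the pro-apoptotic protein Bim (BCL2L11) and the inhibitor p57 (CDKN1C). Their relatives miR-17-5p, miR-20a and miR-106a hold back the maturation of human monocytes. miR-20b-5p lies in the miR-106a-363 cluster, which is usually less expressed than the other clusters.

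A miRNA chooses its targets mainly by its seed, bases 2 to 8 from the 5′ end, which is printed in capitals below for the 4 miRNAs and for the miR-17-92 paralogs that they are later compared with. The sequences are from RefSeq (build GRCm38.p6).
miR-106b-5p: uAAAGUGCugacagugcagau
miR-93-5p: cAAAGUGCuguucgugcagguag
miR-20b-5p: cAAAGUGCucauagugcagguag
miR-20a-5p: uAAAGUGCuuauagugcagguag
miR-25-3p: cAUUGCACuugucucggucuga
miR-92a-3p: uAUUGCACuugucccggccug
miR-106b-5p, miR-93-5p and miR-20b-5p share the seed AAAGUGC with miR-17-5p, miR-20a-5p, miR-106a-5p and miR-6383, and 5 of these 7 were tested. miR-25-3p has another seed, AUUGCAC, which it shares with 5 further miRNAs, and 2 of these 6, miR-25-3p and miR-92a-3p, were tested. Thus the Mcm7 cluster carries both seeds in 1 transcript. Aligned from the first base, miR-93-5p and miR-20b-5p were identical at 20 of 23 bases (87.0%), and miR-106b-5p and miR-93-5p at 16 of 21 (76.2%). miR-20b-5p differed from miR-20a-5p at 2 of 23 bases, C1U and C10U, where the first letter is that of miR-20b-5p and positions are counted from the 5′ end. miR-25-3p and miR-92a-3p were identical at 18 of 21 bases.

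The hairpins of Mir106b (chr5:138165737-138165818), Mir93 (chr5:138165523-138165610) and Mir25 (chr5:138165321-138165404) lie on the minus strand of GRCm38.p6 within the bounds of Mcm7 (chr5:138164583-138172111, minus strand). They span 498 bases, with 126 bases between Mir106b and Mir93 and 118 between Mir93 and Mir25. Mir20b lies on the minus strand of the X chromosome (chrX:52742113-52742192).

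Each of the 4 was measured with 2 probes of 20 spots each, and the probes pair with the 3′ part of the miRNA, not with the whole seed. The longer probe of each is printed here, 5′ to 3′, since it shows which bases a measurement rests on, with the bases that pair with the seed in capitals.
Probe of miR-106b-5p: atctgcactgtcaGCAC
Probe of miR-93-5p: ctacctgcacgaacaG
Probe of miR-20b-5p: ctacctgcactatgaGCACT
Probe of miR-25-3p: tcagaccgagacaaGTGC
The probes of miR-20b-5p match miR-20a-5p with 1 mismatch, those of miR-106b-5p match miR-17-5p with 2 and those of miR-93-5p match miR-20a-5p with 3. Those of miR-25-3p match any other RefSeq mouse miRNA with at least 4 where it covers the whole probe. miR-92a-3p (21 bases) is shorter than miR-25-3p (22), so their alignment from the first base was left out of that count. There they differ at C1U, U14C and U18C (first letter of miR-25-3p), the last 2 of which lie under the probes. The probes of miR-92a-3p match miR-25-3p with 2 mismatches. How much miR-92a-3p the miR-25-3p probes took up was not tested. The longest probes of miR-20b-5p and miR-20a-5p are set below, with the differing base in capitals.
Probe of miR-20b-5p: ctacctgcactatGagcact
Probe of miR-20a-5p: ctacctgcactatAagcac
How much miR-20a-5p the miR-20b-5p probes took up was not tested, so the values of miR-20b-5p are those of its probes.

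The scanner software gave 206 to 256 detected miRNAs per array. Signals were divided by the 75th percentile of each array (427 to 654 intensity units), taken from the 178 miRNAs that every array detected, so that a relative signal of 1 is the signal at that percentile. Media 3 (0.874), Media 1 and Media 2 (0.920 each) and Th2_IL33 2 (0.945) had the lowest median correlations with their own group over the 231 miRNAs, and the other arrays had 0.968 to 0.991. Slide 1 held 3 Th2, 2 Media_IL33 and 3 Media arrays, and slide 2 held all 4 Th2_IL33 arrays with 1 Th2, 2 Media_IL33 and 1 Media. The myeloid miRNAs miR-223-3p, miR-142a-3p and miR-142a-5p were detected on all arrays, with a summed relative signal of 1.36 to 2.19 in Th2_IL33, 1.37 to 2.15 in Th2, 1.21 to 1.47 in Media_IL33 and 1.21 to 1.74 in Media. Of 17 miRNAs that mark other cells or serum, none was detected on any array, and their summed signal was at most 0.0773.

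None of the 4 miRNAs differed between groups past the threshold in any of the 5 comparisons. The highest array was 1.77-fold the lowest for miR-106b-5p, 1.71-fold for miR-93-5p, 1.63-fold for miR-20b-5p and 1.80-fold for miR-25-3p. Their SD within groups on the log2 scale was 0.21, 0.24, 0.18 and 0.25 in that order, against a median of 0.26 over the 231 miRNAs. Of the 231, 21.6%, 40.7%, 13.0% and 43.7% had a smaller SD, in the same order. In RNA from a whole culture, a change in the share of cells that hold a miRNA and a change in its amount per cell cannot be told apart.

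mmu-miR-106b-5p had relative signals of 0.597, 0.664, 0.556 and 0.570 in Th2_IL33 and 0.628, 0.650, 0.616 and 0.559 in Th2 (experiments 1 to 4). It had 0.524, 0.608, 0.723 and 0.595 in Media_IL33 and 0.848, 0.668, 0.479 and 0.639 in Media. Both the highest and the lowest of its 16 values were Media arrays (Media 1 and Media 3), and every other group lay between them. The group means were 0.597 ± 0.0481 in Th2_IL33, 0.614 ± 0.0387 in Th2, 0.612 ± 0.0821 in Media_IL33 and 0.658 ± 0.151 in Media (SD, n = 4 each). The order from highest to lowest on the log2 scale was Media, Th2, Media_IL33 and Th2_IL33, with 0.12 between the ends, and no neighbours differed by as much as the larger of their SDs.

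mmu-miR-93-5p had 0.558, 0.585, 0.389 and 0.583 in Th2_IL33 and 0.592, 0.656, 0.560 and 0.481 in Th2. It had 0.442, 0.473, 0.603 and 0.567 in Media_IL33 and 0.648, 0.631, 0.448 and 0.667 in Media. The array of experiment 3 was the lowest in Th2_IL33 and in Media and the highest in Media_IL33, and the groups overlapped in every comparison. The means were 0.529 ± 0.0936 in Th2_IL33, 0.572 ± 0.0727 in Th2, 0.521 ± 0.0761 in Media_IL33 and 0.598 ± 0.102 in Media. Its order on the log2 scale was Media, Th2, Th2_IL33 and Media_IL33, over 0.19 in all, with every gap between neighbours below the larger of their SDs.

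mmu-miR-20b-5p had 0.936, 1.11, 0.892 and 0.947 in Th2_IL33 and 1.01, 0.995, 0.918 and 0.834 in Th2. It had 0.978, 1.06, 1.26 and 1.19 in Media_IL33 and 1.36, 1.02, 0.905 and 1.18 in Media. Both groups grown in Th2 cytokines had lower means than both groups grown in medium, yet their arrays overlapped, with Th2_IL33 2 above Media_IL33 1 and 2. The means were 0.972 ± 0.0978 in Th2_IL33, 0.939 ± 0.0811 in Th2, 1.12 ± 0.126 in Media_IL33 and 1.11 ± 0.197 in Media. On the log2 scale the largest gap in the order Media_IL33, Media, Th2_IL33 and Th2 was the 0.19 between Media and Th2_IL33, which was under the larger SD of 0.25.

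miR-25-3p, the member with the other seed, had 0.471, 0.495, 0.373 and 0.479 in Th2_IL33 and 0.459, 0.515, 0.455 and 0.448 in Th2. It had 0.402, 0.418, 0.411 and 0.526 in Media_IL33 and 0.613, 0.380, 0.340 and 0.557 in Media. Media 1 and Media 3 were the highest and the lowest of its 16 values, so the Media arrays enclosed the other 3 groups. The means were 0.454 ± 0.0552 in Th2_IL33, 0.469 ± 0.0306 in Th2, 0.439 ± 0.0579 in Media_IL33 and 0.472 ± 0.133 in Media. On the log2 scale the 4 group means lay within 0.10 of each other, in the order Th2, Media, Th2_IL33 and Media_IL33.

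**Figure D1:**
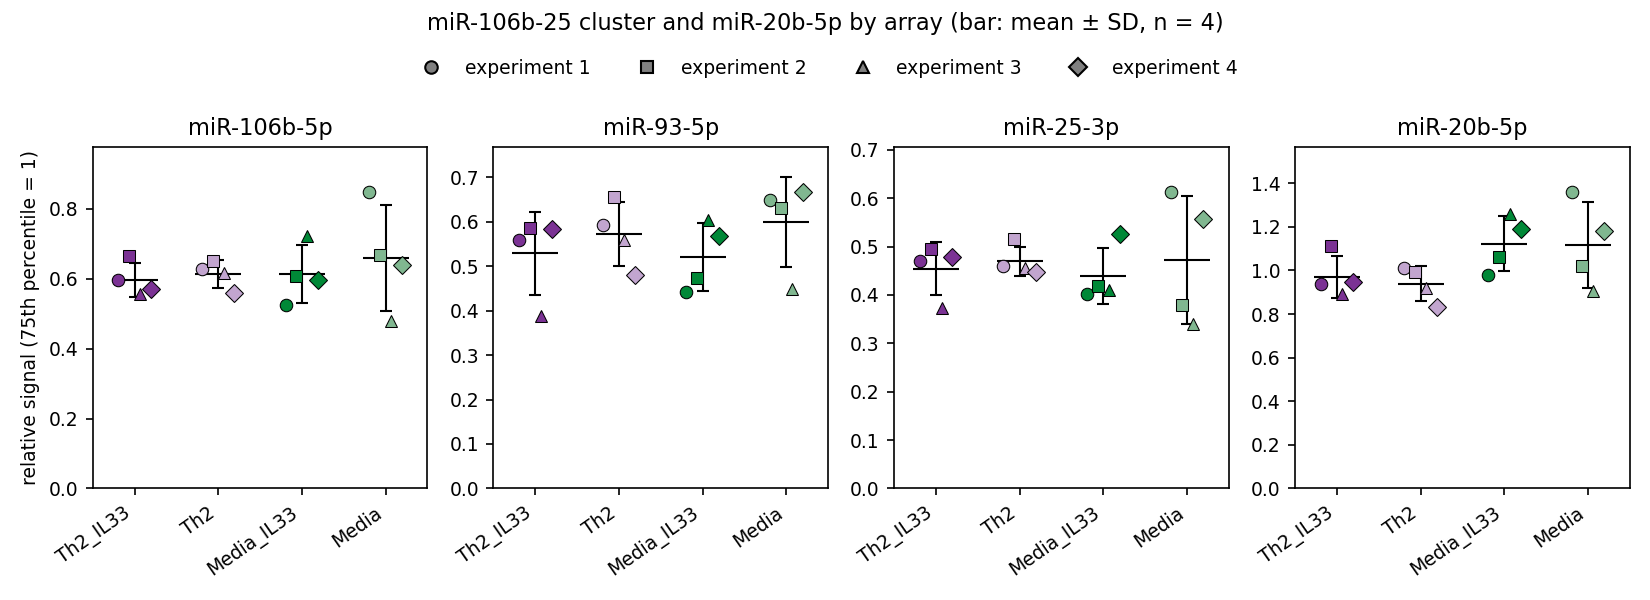
Relative signal of each miRNA (y axis, 1 is the 75th percentile of the array) on the 4 arrays of each group (x axis), with 1 symbol per experiment and bars for the mean ± SD (n = 4). The groups overlap for every miRNA, and the Media arrays run from 0.479 to 0.848 for miR-106b-5p, beyond both ends of the other groups.

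The spread relative to the mean was widest in Media for miR-106b-5p, miR-20b-5p and miR-25-3p, and in Th2_IL33 for miR-93-5p (17.7%). The coefficient of variation in Media was 23.0% for miR-106b-5p, 17.0% for miR-93-5p, 17.7% for miR-20b-5p and 28.1% for miR-25-3p. In Th2 it was 6.31%, 12.7%, 8.63% and 6.52% in the same order. Averaged over the 4 miRNAs, the log2 relative signal was -0.28 on Media 1, the highest of all arrays, and -0.98 on Media 3, the lowest. The next lowest was Th2_IL33 3 at -0.95.

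The 4 miRNAs moved together over the arrays to differing degrees. Over the 16 arrays the Pearson correlation of log2 relative signal was 0.731 between miR-106b-5p and miR-93-5p, 0.689 between miR-93-5p and miR-25-3p and 0.616 between miR-106b-5p and miR-25-3p. With miR-20b-5p it was 0.768 for miR-106b-5p, 0.588 for miR-93-5p and 0.564 for miR-25-3p. For deviations from the group means it was 0.727, 0.701 and 0.631 for the pairs within the cluster, in the order above. With miR-20b-5p these deviations gave higher values, 0.886, 0.781 and 0.788 in the same order of miRNAs. These are descriptions without a test, since miRNAs on an array share its scaling and RNA. The median correlation of miR-106b-5p with all other tested miRNAs was 0.264, that of miR-93-5p 0.360 and that of miR-25-3p 0.379.

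The cluster members were not each other's closest miRNAs. The 3 miRNAs most like miR-106b-5p over the 16 arrays were miR-130b-3p (r = 0.874), miR-98-5p (0.861) and miR-19b-3p (0.828). Of the 230 others, miR-20b-5p ranked 8, miR-93-5p 13 and miR-25-3p 32. Those most like miR-93-5p were miR-365-3p (0.824), miR-130b-3p (0.811) and miR-16-5p (0.807), and those most like miR-25-3p were miR-15b-5p (0.833), miR-16-5p (0.825) and miR-103-3p (0.815). The 3 most like miR-20b-5p were all from the list of miR-17-92 and miR-106a-363 paralogs set out below, miR-19b-3p (0.925), miR-18a-5p (0.892) and miR-19a-3p (0.888).

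**Figure D2:**
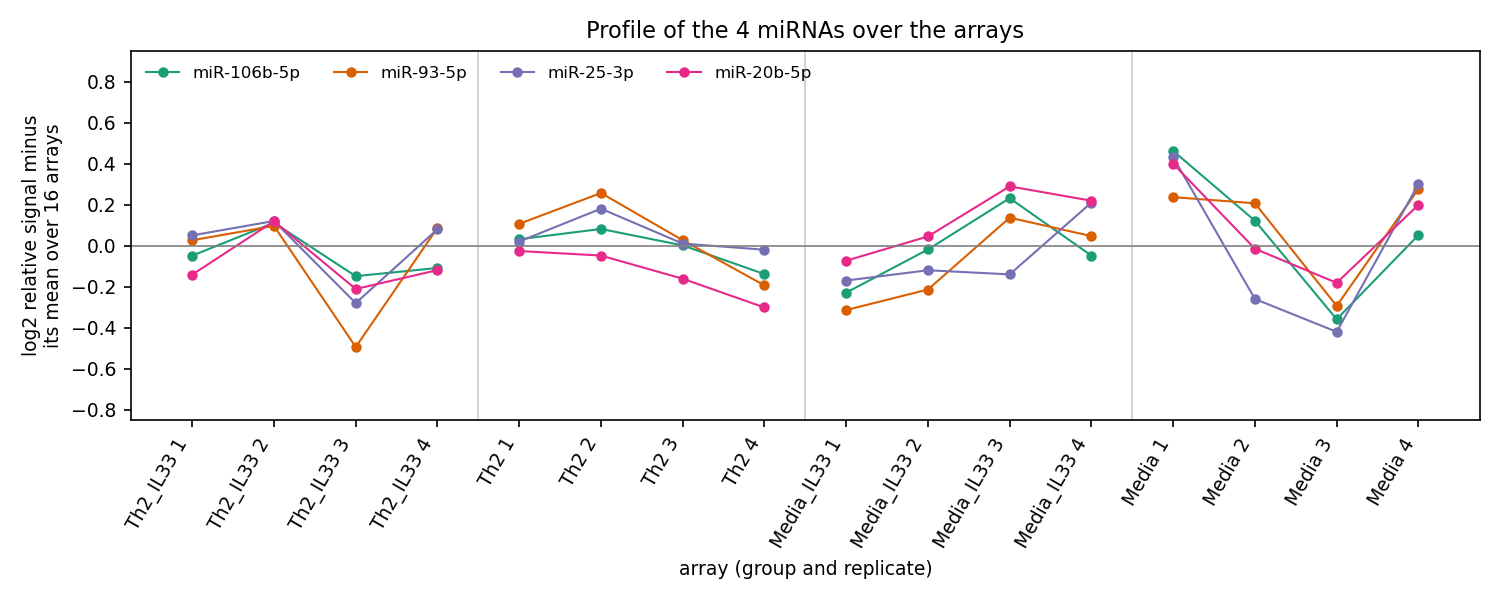
Log2 relative signal of each miRNA minus its mean over the 16 arrays (y axis), for each array (x axis, group and replicate). The mean of the 4 miRNAs is highest on Media 1 and lowest on Media 3, followed by Th2_IL33 3, and miR-20b-5p lies below the other 3 on the Th2 arrays.

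In the comparison of Th2 with Media, 0 of the 4 miRNAs passed the threshold of a limma adjusted p under 0.05, where 9.52% of the 231 tested miRNAs passed, and 0 had an unadjusted p under 0.05, as 24.2% of all did. None had groups without overlap (10.8% of all). The difference nearest to the threshold was that of miR-20b-5p, lower by a log2 difference of -0.23 ± 0.14 (SE), a fold of 0.850 with a 95% interval of 0.694 to 1.04 (limma adjusted p = 0.341, lower in 3 of 4 experiments). miR-106b-5p differed by -0.075 ± 0.15 (fold interval 0.758 to 1.19), miR-93-5p by -0.056 ± 0.17 (0.746 to 1.24) and miR-25-3p by 0.033 ± 0.18 (0.789 to 1.33), with limma adjusted p of 0.857, 0.914 and 0.966. Of the 231 miRNAs, 80.1% had a larger difference in either direction than miR-106b-5p, 86.6% than miR-93-5p and 91.8% than miR-25-3p, but 47.2% than miR-20b-5p. The median difference was -0.065 over the 4 and 0.063 over all tested miRNAs.

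The slides gave different signs for the Mcm7 cluster in this comparison, while miR-20b-5p was below 0 on both. Within slide 1 (3 Th2 and 3 Media arrays) the log2 differences were 0.10 for miR-106b-5p, 0.069 for miR-93-5p, -0.078 for miR-20b-5p and 0.19 for miR-25-3p, with a median of 0.10 over all tested miRNAs. Between the single Th2 and Media arrays of slide 2 they were -0.60, -0.43, -0.70 and -0.45 in that order (median 0 over all tested), and that Media array is Media 1, the highest of all arrays. Without Media 1, Media 3 and Th2_IL33 2 they were -0.093, -0.19, -0.23 and 0.027, and none passed the threshold. Media 2 was kept there, although its median correlation with its own group (0.920) was the same as that of Media 1 and below that of Th2_IL33 2 (0.945).

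With IL-33 present (Th2_IL33 with Media_IL33), 0 of the 4 passed (9.52% of all tested miRNAs), 0 had an unadjusted p under 0.05 (20.3%) and 0 had groups without overlap (37 of 231, 16%). miR-20b-5p was again the lowest of the 4, at -0.21 ± 0.14, a fold of 0.867 with an interval of 0.708 to 1.06 (limma adjusted p = 0.426, lower in 3 of 4 experiments). The Mcm7 cluster lay close to 0, with -0.031 ± 0.15 for miR-106b-5p, 0.012 ± 0.17 for miR-93-5p and 0.049 ± 0.18 for miR-25-3p. Within slide 2 (4 arrays with 2) the difference of miR-20b-5p was -0.073 and those of the cluster were 0.077, 0.19 and 0.14 in that order, with a median of 0.17 over all tested miRNAs, and slide 1 holds no Th2_IL33 array. This comparison shares no array with Th2 with Media, although both come from the same 4 experiments, while the IL-33 comparisons share their Media and Th2 arrays with it.

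IL-33 for 4 h in medium-grown cells (Media_IL33 with Media) also left 0 of the 4 past the threshold (1.73% of all tested miRNAs), 0 at an unadjusted p under 0.05 (6.06%) and 0 without overlap (2.16%). The differences were -0.19 ± 0.17 for miR-93-5p (fold 0.875, interval 0.679 to 1.13, lower in 3 of 4 experiments), -0.085 ± 0.15 for miR-106b-5p, -0.069 ± 0.18 for miR-25-3p and 0.021 ± 0.14 for miR-20b-5p, with limma adjusted p of 1.00 each. The slides differed here as well, with 0.029, 0.15, 0.16 and 0.25 in that order within slide 1 (2 arrays with 3) and -0.50, -0.59, -0.58 and -0.41 within slide 2 (2 arrays with Media 1). The median over all tested miRNAs was 0.16 within slide 1 and -0.17 within slide 2. Of the 231 miRNAs, 18.2% had a larger difference than miR-93-5p.

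IL-33 in Th2-grown cells (Th2_IL33 with Th2) gave 0 of 4 past the threshold (1.73% of all tested miRNAs), 0 at an unadjusted p under 0.05 (2.60%) and 0 without overlap (3.90%). miR-93-5p differed by -0.12 ± 0.17 (fold interval 0.712 to 1.18), miR-25-3p by -0.053 ± 0.18, miR-106b-5p by -0.041 ± 0.15 and miR-20b-5p by 0.049 ± 0.14, with limma adjusted p of 1.00 each. Within slide 2 (4 arrays with 1) the differences were 0.12, 0.011, 0.090 and 0.22 in that order, with a median of 0.070 over all tested miRNAs.

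The interaction subtracts the IL-33 difference without Th2 cytokines from the one with them, and was 0.043 ± 0.22 for miR-106b-5p, 0.068 ± 0.24 for miR-93-5p, 0.028 ± 0.19 for miR-20b-5p and 0.016 ± 0.25 for miR-25-3p (limma adjusted p = 0.995 each). No tested miRNA passed it (0%), and 5 of 231 (2.16%) had an unadjusted p under 0.05. Its interval for miR-93-5p ran from -0.45 to 0.59, which covers differences in either direction. Within slide 2, which holds 1 Media and 1 Th2 array, it was 0.68, 0.62, 0.63 and 0.59 in the same order, where the median over all tested miRNAs was 0.28.

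**Figure D3:**
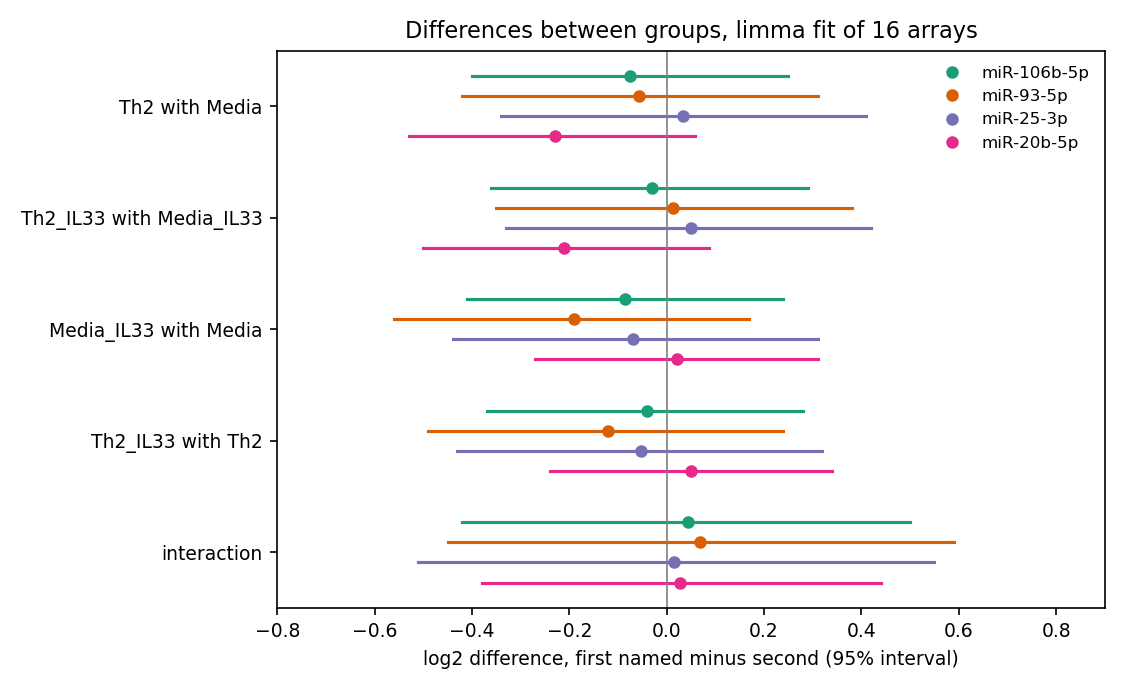
Log2 difference of each miRNA (x axis, first named group minus the second, line for the 95% interval) in the 5 comparisons (y axis). Every interval includes 0, and miR-20b-5p lies lowest in both comparisons of Th2 cytokines, at -0.23 and -0.21.

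Both probes of miR-20b-5p were lower with Th2 cytokines without IL-33, by -0.31 and -0.20 on the log2 scale, and with it, by -0.22 and -0.20. Both probes of miR-93-5p were lower with IL-33 in medium-grown cells, by -0.17 and -0.20. The 2 probes of miR-25-3p differed in sign with Th2 cytokines without IL-33, at -0.056 and 0.044. The first of these is dim, gave 12.4% of the summed signal and was well above background on 12 of 16 arrays, while all other probes of the 4 were so on 16 of 16. An array counted there without every spot of the probe being well above background. With every spot required, the count was 1 of 16 for the dim probe and 11 for the shorter probe of miR-93-5p. It was 15 or 16 for the others. The differences between probes are of group means with no test.

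The opposite arms of the 4 hairpins, which are usually degraded, were below detection. miR-106b-3p, miR-93-3p, miR-25-5p and miR-20b-3p were detected on 0 of 16 arrays each, with relative signals of at most 0.0230, below the floor of 0.0353 that was set for the tests. None of their probes was well above background on any array. Of the paralogs, miR-18b-5p and miR-363-3p of the X-linked cluster were likewise detected on 0 arrays, and miR-106a-5p has no entry of its own on the array. The probes of miR-20b-5p, of the same cluster, had a median relative signal of 1.00 over the 16 arrays. That of miR-20a-5p, which these probes match with 1 mismatch, was 3.14, and its share in the miR-20b-5p signal was not tested. The array's miR-17-5p probes are mapped by the files to both chromosome 14 and the X chromosome. RefSeq gives the same miR-92a-3p sequence from Mir92-1 on chromosome 14 and from Mir92-2 on the X chromosome, so its signal does not tell these loci apart.

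The paralog list holds the other miRNAs of the miR-17-92 and miR-106a-363 clusters, which share an ancestor with the Mcm7 cluster. Of its 9 miRNAs, 8 are on the array and 6 were tested. These 6 all belong to the miR-17-92 cluster and were read on the same arrays, so they are not independent of each other. With Th2 cytokines without IL-33, 0 of the 6 passed the threshold in either direction (9.52% of all tested), 3 had an unadjusted limma p under 0.05 as lower (6.49% of all tested), and the 6 differences ran from -0.40 to -0.23 with a median of -0.34, against 0.063 over all 231. All 6 were below 0 in each alternative processing, all of which reuse these arrays. How many passed as lower depended on the processing, and so did the share of all tested miRNAs that did (2 of 231 as reported). It was 5 of the 6 without Media 3, where 5.63% of all passed as lower, and 5 with array weights, where 14.3% did. It was 3 in the authors' deposited table (3.90% of all), 2 with quantile normalization (4.76%) and 1 with normexp background correction (0.433%). The difference of miR-20b-5p, -0.23, stood at the upper end of that range, and those of the Mcm7 cluster, -0.075 to 0.033, lay above it. With IL-33 the 6 ran from -0.35 to -0.20 with a median of -0.24 (0.080 over all 231), 0 passed (9.52% of all tested) and 1 had an unadjusted p under 0.05 as lower (2.60% of all tested). Here 2 passed as lower with quantile normalization (2.16% of all tested), with array weights (3.03%) or in the authors' deposited table (1.30%), and 1 with the scanner software's total gene signal (2.16%), against 3 of 231 as reported. In that comparison miR-20b-5p lay at -0.21, within the range of the 6, and the Mcm7 cluster at -0.031 to 0.049 above it. With IL-33 as the variable the 6 lay between -0.064 and 0.052 in medium-grown and between 0.017 and 0.16 in Th2-grown cells.

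**Figure D4:**
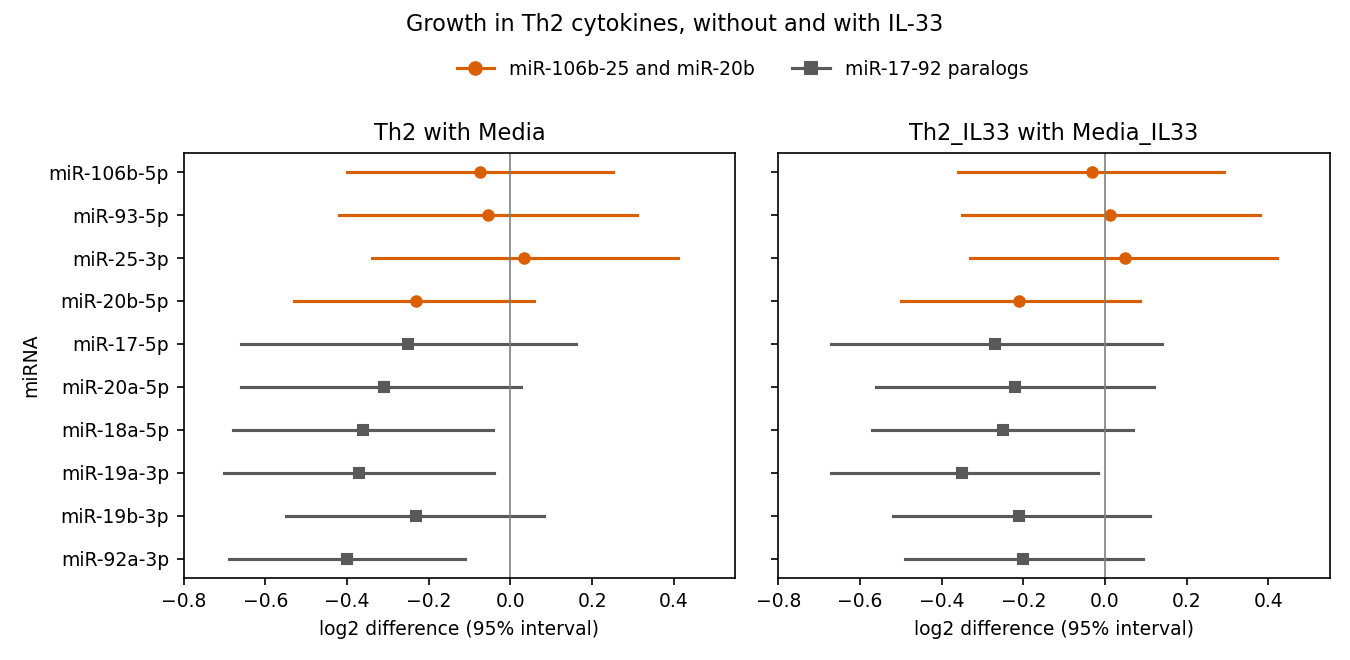
Log2 difference (x axis, line for the 95% interval) of the 4 miRNAs (circles) and the 6 tested miR-17-92 paralogs (squares) on growth in Th2 cytokines, without IL-33 on the left and with IL-33 on the right. The 6 paralogs and miR-20b-5p lie between -0.40 and -0.20 in both panels, and the Mcm7 cluster lies between -0.075 and 0.049.

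To see whether a miRNA and its same-seed paralog changed unequally, each was set over a bright miR-17-92 paralog on the same array, which removes the scaling of the array. These ratios were chosen after the values had been seen. miR-106b-5p over miR-20a-5p had log2 ratios of -2.13, -2.16, -2.14 and -2.35 in Th2, against -2.46, -2.52, -2.37 and -2.39 in Media. The Th2 arrays lay above the Media arrays without overlap, with Th2 4 nearest to them, and the mean difference was 0.24 (two-sided exact permutation p = 0.0286, the smallest that 4 arrays against 4 allow, and 0.114 adjusted over the 16 ratio tests). This permutation test of the ratios takes no account of which arrays share an experiment, and no paired form was run. With IL-33 the ratios were -2.38, -2.34, -2.35 and -2.39 in Th2_IL33, against -2.59, -2.56, -2.56 and -2.50 in Media_IL33. These did not overlap either, with a difference of 0.19 (exact permutation p = 0.0286, adjusted 0.114, higher in 4 of 4 experiments). Of the 230 tested miRNAs other than miR-20a-5p, 31.7% lay above without overlap in their ratio to miR-20a-5p without IL-33 and 34.8% with it. The difference without IL-33 was 0.28 on slide 1 and 0.11 for the lone pair of arrays on slide 2, and the one with IL-33 was 0.22 on slide 2. With IL-33 as the variable the ratio was lower in 4 of 4 experiments, by -0.12 in Media_IL33 with Media and by -0.17 in Th2_IL33 with Th2, but the arrays overlapped (exact permutation p = 0.0571 and 0.0857, adjusted 0.183 and 0.229).

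miR-93-5p over miR-20a-5p was 0.26 higher in Th2 than in Media and 0.23 higher in Th2_IL33 than in Media_IL33, higher in 3 of 4 experiments in both (exact permutation p = 0.114, adjusted 0.229 each). It was lower by -0.23 in Media_IL33 with Media and by -0.25 in Th2_IL33 with Th2, in 3 of 4 experiments each (exact permutation p = 0.200 and 0.143, adjusted 0.291 and 0.254). miR-20b-5p over miR-20a-5p differed by 0.080 in Th2 with Media and 0.016 in Th2_IL33 with Media_IL33 (adjusted exact permutation p = 0.738 and 0.947), and by -0.012 and -0.077 in the IL-33 comparisons without and with Th2 cytokines (adjusted 0.971 and 0.457). The groups overlapped in all of these.

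miR-25-3p over miR-92a-3p, the pair with the other seed, had log2 ratios of -1.18, -1.24, -1.18 and -1.23 in Th2, against -1.47, -2.09, -1.76 and -1.26 in Media. The 4 Th2 arrays lay close together (SD 0.030) and above all Media arrays, although Media 4 was close, and the difference was 0.44 (exact permutation p = 0.0286, adjusted 0.114). Of the 230 tested miRNAs other than miR-92a-3p, 42.2% lay above without overlap in this ratio. The difference was 0.50 on slide 1 and 0.25 for the lone pair on slide 2. In Th2_IL33 the ratios were -1.52, -1.39, -1.46 and -1.25, below those of Th2 by -0.19 without overlap (exact permutation p = 0.0286, adjusted 0.114), where 0.435% of the 230 lay below, which is miR-25-3p itself, 1 of 230. The nearest arrays were -1.25 in Th2_IL33 and -1.24 in Th2, and within slide 2 (4 arrays with 1) the difference was -0.18. The ratio differed by 0.25 in Th2_IL33 with Media_IL33 (higher in 3 of 4 experiments) and by -0.0058 in Media_IL33 with Media (adjusted exact permutation p = 0.274 and 0.971). No ratio passed after adjustment, but a lone ratio at the smallest p could not pass over 16 tests, so this shows little. A ratio by itself does not show which miRNA of a pair differed. In Th2 with Media the log2 differences were -0.40 ± 0.14 for miR-92a-3p and 0.033 ± 0.18 for miR-25-3p. They were -0.31 ± 0.16 for miR-20a-5p and -0.075 ± 0.15 for miR-106b-5p, and none of these passed the limma threshold. In Th2_IL33 with Th2 they were 0.14 ± 0.14 for miR-92a-3p and -0.053 ± 0.18 for miR-25-3p. Uptake of either miRNA of a pair by the probes of the other was not tested.

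**Figure D5:**
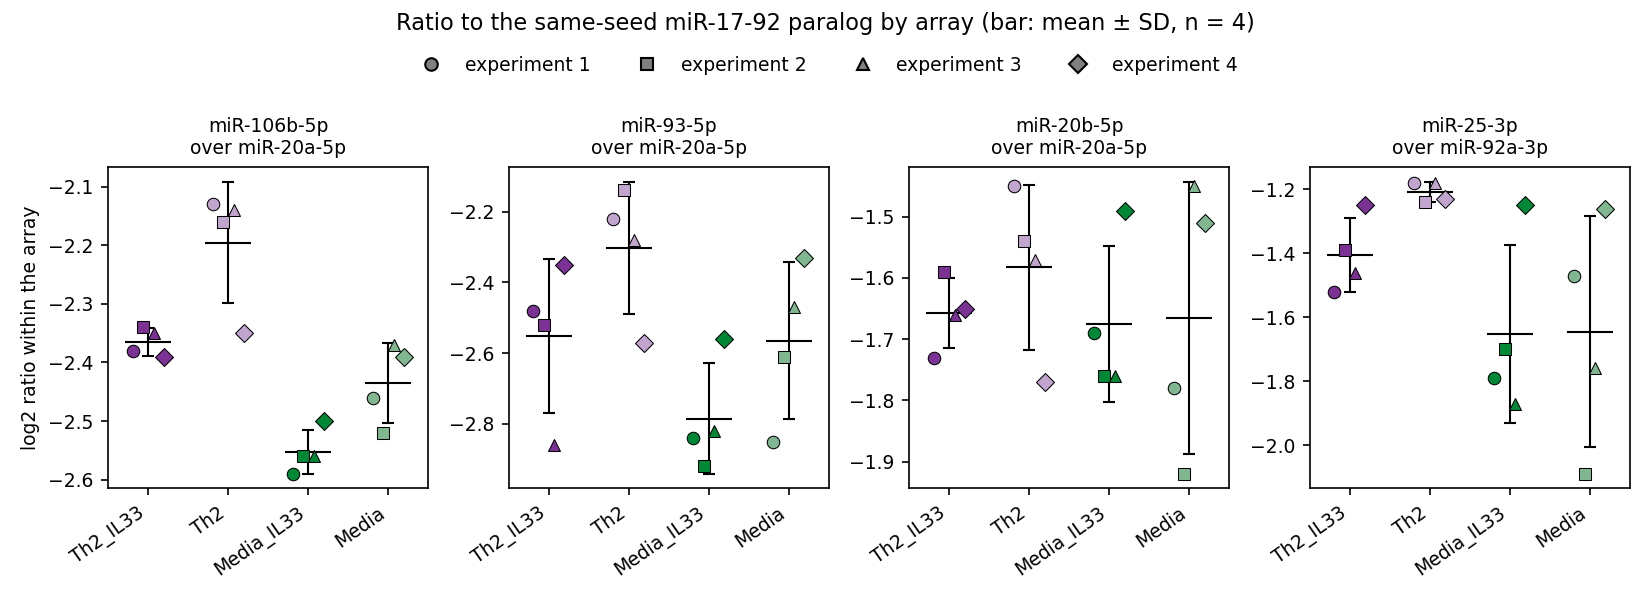
Log2 ratio of each miRNA to its same-seed miR-17-92 paralog within the array (y axis, which does not start at 0) for the 4 arrays of each group (x axis), with 1 symbol per experiment and bars for the mean ± SD (n = 4). The Th2 arrays lie above the Media arrays for miR-106b-5p over miR-20a-5p and for miR-25-3p over miR-92a-3p.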

How the data were processed

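Total RNA of 16 cultures was labelled with Cy3 and hybridised to single-colour Agilent mouse miRNA arrays. Per the file headers, the authors' scanner files come from Agilent Feature Extraction 10.7.3.1 and hold the intensity of each spot, with background and spatial trend subtracted and no normalization between arrays. Their 0 or 1 marks for detection, background, saturation and outliers were used as deposited. The authors' deposited table of probe intensity values is named in the submitters' processing notes with Partek 6.6 and RMA. All its columns have the same distribution, and it was used as an alternative. Spots marked as outliers (2040 to 3929 of 49880 per array) were dropped, then each probe's spots were averaged and each miRNA's probes summed. The sums were divided by the 75th percentile and floored at a relative signal of 0.0353, the 1st percentile of detected signals, before log2. No spot was saturated.

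The 231 miRNAs detected on all 4 arrays of a group were tested with limma 3.58.1 in R 4.3.3, with 1 mean per group, no block and 12 residual degrees of freedom. Within a comparison p-values were adjusted by Benjamini-Hochberg across the 231, with a threshold of 0.05, and intervals are 95% intervals from the moderated SE. The number of arrays limits the precision, with a median SE of 0.18 for a log2 difference. The 4 miRNAs were named in every comparison, with the paralogs, opposite arms and same-seed miRNAs by fixed lists and the 3 most alike by Pearson correlation. The miRNAs and lists were chosen with earlier results of these data known, and the same-seed ratios after their values were seen. Of the fixed marker names, miR-142 is miR-142a on this array. Of 1247 array names, 1031 matched RefSeq, with all 4 miRNAs among them. The fit was tested on simulated data. The sample descriptions give arrays of the same replicate number in all groups the same experiment letter, which was read as 1 of the 4 experiments. Deviations from group means correlated with a median of 0.112 (-0.694 to 0.728, 24 pairs) between arrays of the same number and -0.0482 between others. The alternatives were other scalings, background correction, summaries, filters, blocks for slide and replicate number, array weights, the authors' table and arrays left out. The alternative without a filter left out miRNAs at the floor on all arrays. Slides were read from the array barcodes.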

Additional observations from a re-analysis of the deposited data

Results flagged for a closer look

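In 3 of 16 combinations of a miRNA and a group, 1 array lay far from the other 3, measured as its gap to the nearest array over the range of the group on the log2 scale, and above Dixon's 95% critical value for 4 arrays. By chance this befalls about 1 in 20 groups, but the 16 combinations share arrays and are not independent. miR-93-5p was low on Th2_IL33 3 (0.389, against 0.558 to 0.585 on the other arrays of that group, ratio 0.883) and on Media 3 (0.448, against 0.631 to 0.667, ratio 0.863). miR-25-3p was high on Media_IL33 4 (0.526, against 0.402 to 0.418, ratio 0.852).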

How the results depend on the processing

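In every alternative, 0 of the 4 miRNAs passed the threshold in each comparison that was run, with a smallest limma adjusted p of 0.0690 (miR-20b-5p, Th2_IL33 with Media_IL33). Slide 1 holds no Th2_IL33 array, so only Th2 with Media and Media_IL33 with Media were run within it. Slide 2 holds only 1 Media and 1 Th2 array. miR-20b-5p was below 0 in all 33 alternatives of Th2 with Media (-0.70 to -0.078, adjusted p 0.0805 to 0.776) and in all 32 of Th2_IL33 with Media_IL33 (-0.32 to -0.073, adjusted p 0.0690 to 0.707). Of 648 alternative differences of the 4 miRNAs, 99 changed sign, and of 456 alternative ratios 27 did, with none past the threshold on either side. The smallest adjusted exact permutation p of a ratio was 0.0914. With so few arrays a lone ratio could not pass the adjustment, and within a slide the smallest possible p is larger still. The lack of passing ratios therefore shows little. The ratio of miR-106b-5p to miR-20a-5p ranged from 0.11 to 0.54 in Th2 with Media and from 0.18 to 0.47 in Th2_IL33 with Media_IL33, and that of miR-25-3p to miR-92a-3p from 0.25 to 0.73 in Th2 with Media and from -0.25 to -0.12 in Th2_IL33 with Th2. The cause of the sign changes was not tested. The fit with the replicate block, in which arrays with the same experiment letter in the labels are paired, changed no call of the 4 miRNAs (miR-20b-5p -0.23, adjusted p = 0.374 in Th2 with Media).

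With the 75th percentile taken over all miRNAs, the sign turned to give -0.021 for miR-25-3p in Th2 with Media and 0.0047 for miR-106b-5p and 0.020 for miR-25-3p in Media_IL33 with Media. It also gave 0.065 for miR-106b-5p and 0.053 for miR-25-3p in Th2_IL33 with Th2 and -0.024 for miR-93-5p in Th2_IL33 with Media_IL33. With quantile normalization, the sign turned to give 0.031 for miR-106b-5p and 0.043 for miR-93-5p in Th2 with Media and 0.0059 for miR-25-3p, 0.041 for the ratio of miR-106b-5p to miR-20a-5p and 0.14 for the ratio of miR-20b-5p to miR-20a-5p in Media_IL33 with Media. It also gave -0.00039 for miR-93-5p in Th2_IL33 with Media_IL33 and -0.083 for miR-106b-5p, -0.044 for miR-93-5p, -0.053 for miR-25-3p and -0.059 for miR-20b-5p in the interaction. With normexp background correction, the sign turned to give -0.037 for miR-25-3p in Th2 with Media. With outlier spots kept, the sign turned to give -0.024 for miR-93-5p and -0.0023 for the ratio of miR-20b-5p to miR-20a-5p in Th2_IL33 with Media_IL33. With the mean log2 of the probes, the sign turned to give -0.0060 for miR-25-3p in Th2 with Media and -0.017 for miR-25-3p in Th2_IL33 with Media_IL33. It also gave -0.011 for miR-25-3p in the interaction. With the scanner software's total gene signal, the sign turned to give 0.032 for miR-106b-5p and 0.047 for miR-25-3p in Media_IL33 with Media and -0.10 for miR-93-5p and -0.066 for miR-25-3p in Th2_IL33 with Media_IL33. It also gave -0.083 for miR-106b-5p, -0.058 for miR-93-5p, -0.11 for miR-25-3p and -0.10 for miR-20b-5p in the interaction. With slide as a block, the sign turned to give 0.014 for miR-93-5p in Th2_IL33 with Th2 and -0.019 for miR-25-3p in the interaction. With the replicate block and slide as a second block, the sign turned to give 0.11 for miR-93-5p in Th2_IL33 with Th2. With array weights, the sign turned to give -0.13 for miR-25-3p in Th2 with Media and -0.066 for miR-20b-5p in Media_IL33 with Media. It also gave -0.042 for miR-20b-5p in Th2_IL33 with Th2. In the authors' deposited table, the sign turned to give 0.021 for miR-106b-5p, 0.074 for miR-25-3p, 0.0092 for the ratio of miR-106b-5p to miR-20a-5p, 0.019 for the ratio of miR-20b-5p to miR-20a-5p and 0.16 for the ratio of miR-25-3p to miR-92a-3p in Media_IL33 with Media and 0.028 for miR-106b-5p and 0.027 for the ratio of miR-20b-5p to miR-20a-5p in Th2_IL33 with Th2. It also gave -0.076 for miR-93-5p and -0.033 for miR-25-3p in Th2_IL33 with Media_IL33 and -0.057 for miR-93-5p and -0.13 for miR-25-3p in the interaction. Without Media 1, Media 3 and Th2_IL33 2, the sign turned to give -0.018 for miR-20b-5p in Th2_IL33 with Th2 and -0.043 for miR-93-5p and -0.0064 for the ratio of miR-20b-5p to miR-20a-5p in Th2_IL33 with Media_IL33. It also gave -0.022 for miR-25-3p and -0.048 for miR-20b-5p in the interaction and 0.035 for the ratio of miR-20b-5p to miR-20a-5p and 0.023 for the ratio of miR-25-3p to miR-92a-3p in Media_IL33 with Media. Within slide 1, the sign turned to give 0.10 for miR-106b-5p and 0.069 for miR-93-5p in Th2 with Media and 0.15 for miR-106b-5p, 0.029 for miR-93-5p, 0.16 for miR-25-3p and 0.14 for the ratio of miR-25-3p to miR-92a-3p in Media_IL33 with Media. Within slide 2, the sign turned to give -0.45 for miR-25-3p in Th2 with Media and -0.41 for miR-20b-5p and 0.052 for the ratio of miR-20b-5p to miR-20a-5p in Media_IL33 with Media. It also gave 0.090 for miR-106b-5p, 0.12 for miR-93-5p, 0.011 for miR-25-3p, 0.014 for the ratio of miR-93-5p to miR-20a-5p and 0.11 for the ratio of miR-20b-5p to miR-20a-5p in Th2_IL33 with Th2 and 0.077 for miR-106b-5p in Th2_IL33 with Media_IL33. Leaving out 1 array at a time also turned signs. In Th2 with Media the values ran from -0.22 to 0.057 for miR-106b-5p, -0.19 to 0.024 for miR-93-5p, -0.11 to 0.17 for miR-25-3p and -0.0038 to 0.15 for the ratio of miR-20b-5p to miR-20a-5p. In Media_IL33 with Media they ran from -0.23 to 0.047 for miR-106b-5p, -0.21 to 0.071 for miR-25-3p, -0.074 to 0.12 for miR-20b-5p, -0.10 to 0.057 for the ratio of miR-20b-5p to miR-20a-5p and -0.15 to 0.12 for the ratio of miR-25-3p to miR-92a-3p. In Th2_IL33 with Th2 they ran from -0.20 to 0.016 for miR-93-5p, -0.10 to 0.039 for miR-25-3p and -0.018 to 0.089 for miR-20b-5p. In Th2_IL33 with Media_IL33 they ran from -0.10 to 0.051 for miR-106b-5p, -0.063 to 0.15 for miR-93-5p and -0.012 to 0.077 for the ratio of miR-20b-5p to miR-20a-5p. In the interaction they ran from -0.088 to 0.19 for miR-106b-5p, -0.012 to 0.21 for miR-93-5p, -0.12 to 0.16 for miR-25-3p and -0.072 to 0.12 for miR-20b-5p.

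The counts over all tested miRNAs were 22 in Th2 with Media (20 higher and 2 lower), 4 in Media_IL33 with Media, 4 in Th2_IL33 with Th2, 22 in Th2_IL33 with Media_IL33 (19 higher and 3 lower) and 0 in the interaction. In Th2 with Media they were 64 with array weights and 4 within slide 2. In Media_IL33 with Media they were 1 with normexp or with miRNAs detected on all 16 arrays, 2 with the mean log2 of the probes, without Media 1, Media 3 and Th2_IL33 2 or within slide 1, and 0 within slide 2. In Th2_IL33 with Th2 they were 2 with the 75th percentile over all miRNAs, normexp, the mean log2 of the probes, miRNAs detected on all arrays or the authors' deposited table, and 0 within slide 2. In Th2_IL33 with Media_IL33 they were 12 with the 75th percentile over all miRNAs, 14 with miRNAs detected on all arrays or the authors' deposited table, 37 with the replicate block and slide as a second block and 71 with array weights. The interaction had 1 with array weights. Leaving out 1 array at a time gave 19 to 30 in Th2 with Media and 19 to 36 in Th2_IL33 with Media_IL33, both highest without Media 3. In Th2 with Media the split of higher and lower calls was 12 and 3 with the 75th percentile over all miRNAs, 18 and 11 with quantile normalization and 15 and 9 in the authors' deposited table, and in Th2_IL33 with Media_IL33 it was 13 and 5 with quantile normalization. The median of all tested miRNAs moved to 0.16 in Media_IL33 with Media (0.023 as reported) and to -0.14 in the interaction (0.016) with the total gene signal, and to -0.067 in Th2 with Media (0.063) in the authors' deposited table. In Th2_IL33 with Media_IL33 (0.080 as reported) it moved to -0.039 with the total gene signal and to -0.042 in the authors' deposited table, and in Th2_IL33 with Th2 (0.0015) to 0.10 with the 75th percentile over all miRNAs. In Media_IL33 with Media it was also -0.078 with normexp, -0.085 with array weights or without Media 3, 0.16 within slide 1 and -0.17 within slide 2. In the interaction it was also 0.13 with array weights, 0.12 without Media 3 and 0.28 within slide 2.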
